A study of Arabidopsis thaliana with 8 samples.

Results

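The genes described here are 76 Arabidopsis genes whose signal in the shoot was lower 30 min after the root had been wounded, out of 21500 genes with a probe on the array. They were chosen on these same arrays, by the ratio of wounded over unwounded shoots. A gene was taken when its mean log2 ratio over the 4 arrays of 30 min was at most -0.7, all 4 arrays were below 0, and its mean over the 4 arrays of 360 min was under 0.3. For this choice the background-subtracted signals were floored at 30 and each array was centred on its median. A total of 83 genes met these limits, and 7 of them, which stand on a list of 10 loci left out by name, were dropped.

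The material was shoots of 13-day-old Col-0 seedlings, a wild-type accession, grown on agar medium with 3% sucrose in 16 h of light and 8 h of dark. In the wounded group the primary root was cut with a razor blade 5 mm below the shoot, and shoots were collected 30 or 360 min later. In the unwounded group the roots stayed intact and shoots were collected at the same times. Wounded and unwounded RNA of a time were hybridised together on 2-colour Agilent arrays, with 2 biological replicates per time and 2 arrays with exchanged dyes for each replicate, 8 arrays in all. Nothing in the labels gives the number of seedlings behind an RNA or links a replicate of one time to a replicate of the other. Whole shoots were used, so that fewer cells of a type and less RNA per cell cannot be told apart.

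A wound is known to reach distant organs of a plant through rapid signals that are followed by jasmonate synthesis. In growing shoots many short-lived transcripts belong to auxin-responsive growth genes, to transcription factors and to ubiquitin ligase components. SAUR genes are early auxin-responsive genes whose small proteins promote cell expansion, and Aux/IAA proteins repress auxin-responsive transcription. Transcripts with short half-lives can decline within minutes when their synthesis stops.

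Because the choice used the ratio at both times, nothing below is a test of either ratio for these genes, and their values are a description. All values other than those of the choice itself come from a second normalization (normexp background correction and loess), in which the dye pairs were averaged to 1 value per replicate. Values are log2 ratios of wounded over unwounded, given as mean ± SD of 2 replicates (n = 2), unless a level is named. A level is the log2 normalized signal of a channel, and levels of different genes are not set against each other. Genes well above background in every measurement of at least 1 condition were kept, which left 19178 genes and all 76 of those chosen.

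The 8 arrays differed in brightness, with median red signals of 184 to 271 at 30 min and 323 to 431 at 360 min. All 6 leaf photosynthesis markers were well above background on every array, with summed signals of 166764 to 187470 across conditions. Of 10 root markers, 6 were well above background on all 4 arrays of 30 min in each group. RHD2 and IRT1 were above it on no array at that time. At 360 min 9 root markers were above it on all 4 arrays in unwounded shoots and 8 in wounded shoots. The summed root signal was 2092 to 2822 at 30 min and 2482 to 2950 at 360 min. OPR3, a jasmonate synthesis gene, had ratios of 3.68 to 4.05 on the 4 arrays at 30 min, so the labelled dye orientation held on each of them.

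At 30 min the median ratio of the 76 genes was -0.71, with a range from -2.01 to -0.46, against a median of -0.0013 over all genes kept. The medians of the replicates were -0.68 and -0.75. A total of 12 genes were at least 2-fold lower in wounded shoots. In the fit over all genes (limma, adjusted p under 0.05), 75 of the 76 passed in the lower direction, where 2.16% of all genes tested did. As the choice used this contrast, nothing is read from that count. It was 38 without replicate 1 of 30 min and 27 without replicate 2. ANAC059 (AT3G29035) was the gene that did not pass, with ratios of -0.86 and -0.36 in the replicates.

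By level, both wounded replicates were below both unwounded replicates at 30 min for 73 of the 76 genes, where 5.49% of all genes showed this, and again nothing is read from it. The exceptions were AT5G25280, AT3G15570 and AT2G29290, whose replicates lay far apart in level in both groups. The unwounded channel was well above background on all 4 arrays for all 76 genes, and the wounded channel for 74. BEE3 (AT1G73830) was well above background in the wounded channel on 2 of 4 arrays and SAUR65 (AT1G29460) on 3 of 4. AT5G21940 and BZO2H3 (AT5G28770) had a spot marked as an outlier at 30 min and have a ratio from 1 replicate there.

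**Figure D1:**
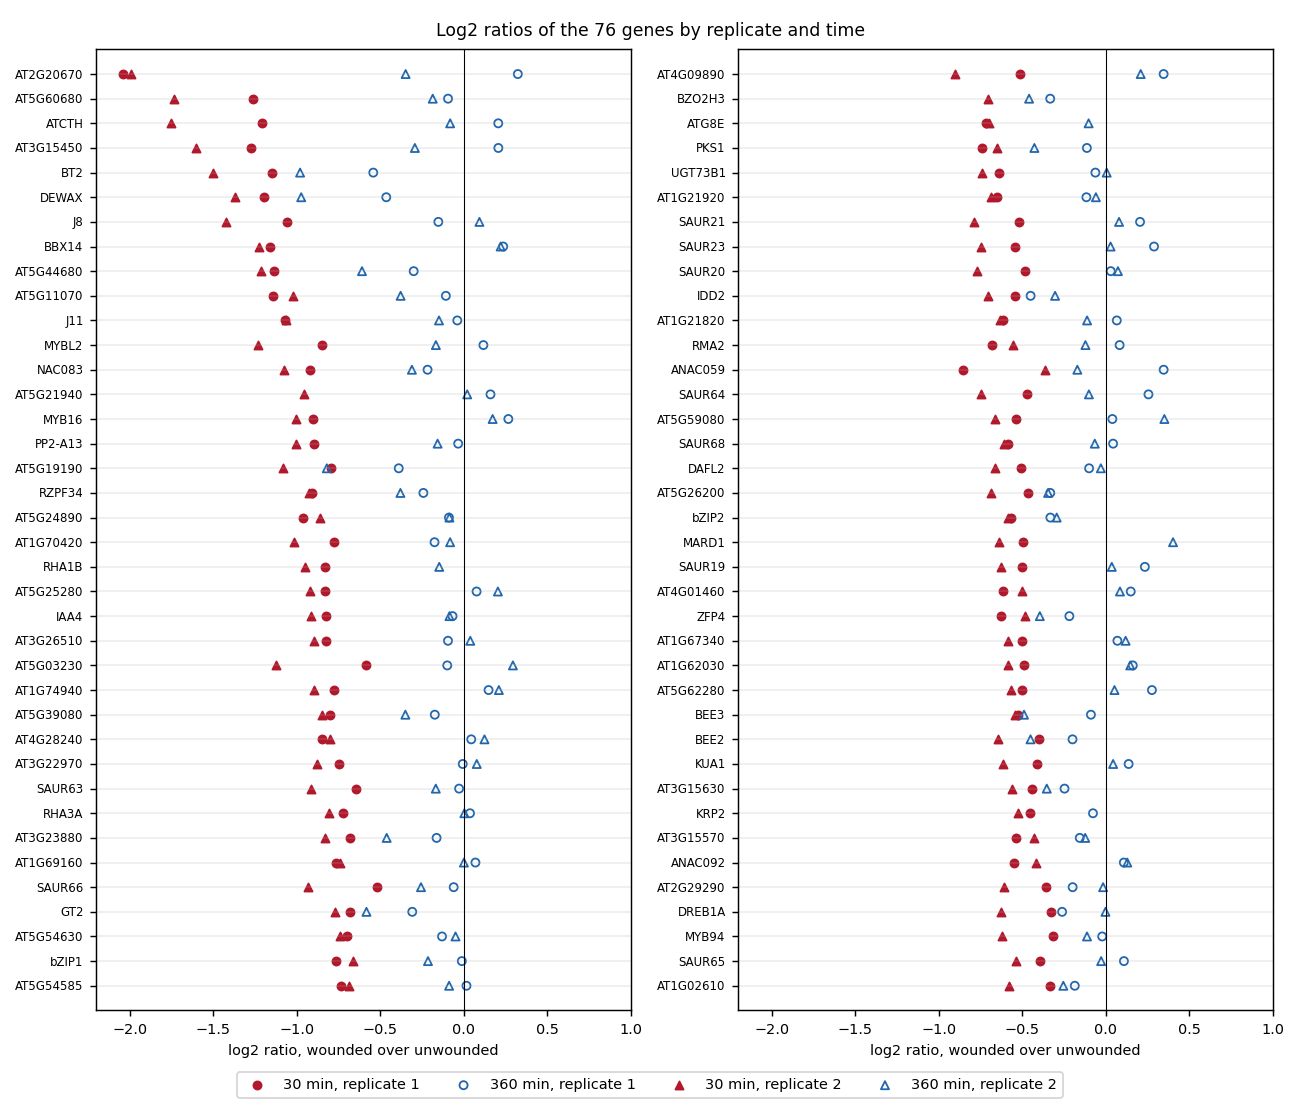
Log2 ratio of wounded over unwounded shoots (horizontal axis) for each of the 76 genes (rows, ordered by their mean at 30 min), with filled red marks for 30 min, open blue marks for 360 min, circles for replicate 1 and triangles for replicate 2. All marks of 30 min lie left of 0, from -2.04 to -0.31, and those of 360 min lie on both sides of it.

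The lowest ratio belonged to AT2G20670, annotated on the array only as an expressed protein. Its level in unwounded shoots at 30 min was 11.05 and 10.94, and in wounded shoots 9.01 and 8.95. The arrays gave -1.98 and -2.09 for replicate 1 and -1.97 and -2.01 for replicate 2, a mean of -2.01 ± 0.03, which is 4.04-fold lower. No gene among all those kept had a lower mean ratio at 30 min.

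Transcription factors and zinc finger proteins made up 20 of the 76 genes, with a median ratio of -0.62 at 30 min. The lowest was ATCTH (AT2G25900), a tandem CCCH zinc finger gene. Its level was 9.03 and 8.97 in unwounded shoots at 30 min and 7.82 and 7.22 in wounded shoots, so the groups were well apart while the wounded replicates differed between themselves. Its ratio was -1.48 ± 0.39, the widest SD among the genes with 2 replicates.

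DEWAX (AT5G61590), an ERF-type repressor of cuticular wax synthesis, had levels of 10.10 and 10.05 in unwounded shoots at 30 min. Wounded shoots had 8.91 and 8.69, and the ratio was -1.28 ± 0.12. DEWAX was 1 of 3 genes of the set with a mean ratio at or below -0.5 at 360 min. Its ratio there was -0.72 ± 0.36, with replicates at -0.46 and -0.97. MYB94 (AT3G47600), an activator of wax synthesis, stood near the other end at 30 min with -0.47 ± 0.22. MYB16 (AT5G15310), a MIXTA-like factor of epidermal and cuticle development, had -0.95 ± 0.07 at 30 min and 0.22 ± 0.07 at 360 min. The cuticle-related factors in the set thus included a repressor as well as activators.

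BBX14 (AT1G68520), a B-box zinc finger protein of the CONSTANS family, had levels of 9.61 and 9.75 in unwounded shoots at 30 min and 8.46 and 8.53 in wounded shoots. All 4 arrays lay between -1.25 and -1.11, and the mean was -1.19 ± 0.05. At 360 min its ratio was 0.23 ± 0.01, with wounded levels of 10.19 and 10.59 against 9.96 and 10.37. Within each replicate the wounded shoots were then the higher, although the levels of the groups overlapped.

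MYBL2 (AT1G71030), an R3-type MYB protein that represses anthocyanin synthesis, had a ratio of -1.04 ± 0.27 at 30 min. Its levels were 9.36 and 9.45 in unwounded and 8.51 and 8.22 in wounded shoots. At 360 min all 4 values lay lower, at 7.02 and 7.04 in unwounded and 7.14 and 6.87 in wounded shoots. The 30 min levels of both groups were therefore above every 360 min level of this gene.

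The set held 3 bZIP factors of the low-energy response, which act with the kinase SnRK1 and can form dimers. bZIP1 (AT5G49450) had a ratio of -0.72 ± 0.07 and bZIP2 (AT2G18160) a ratio of -0.58 ± 0.01. BZO2H3, also known as bZIP63, had -0.71 from replicate 2 alone, while the array of replicate 1 that gave a value had -0.63. At 360 min the ratios were -0.11 ± 0.14 for bZIP1, -0.31 ± 0.03 for bZIP2 and -0.40 ± 0.09 for BZO2H3, all below 0.

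There were also 3 NAC factors. NAC083 (AT5G13180), known as a repressor of xylem vessel formation, had -0.998 ± 0.11 at 30 min and -0.26 ± 0.07 at 360 min. ANAC092 (AT5G39610) and ANAC059, both known as promoters of leaf senescence, had -0.48 ± 0.09 and -0.61 ± 0.35. The SD of ANAC059 was more than 3 times that of the other 2.

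BEE2 (AT4G36540) and BEE3, bHLH factors that promote growth and are induced early by brassinosteroid, had ratios of -0.52 ± 0.17 and -0.53 ± 0.01. KUA1 (AT5G47390), a MYB-related factor that promotes leaf cell expansion, had -0.52 ± 0.14. DREB1A (AT4G25480), the cold-response factor also called CBF3, had -0.48 ± 0.21, with -0.33 in replicate 1 and -0.63 in replicate 2. These 4 lay in the upper range of the set, and replicate 2 was the lower for each of them. The trihelix factor GT2 (AT1G76890) had -0.73 ± 0.06, the C2H2 zinc finger gene ZFP4 (AT1G66140) had -0.56 ± 0.10 and the indeterminate domain gene IDD2 (AT3G50700) had -0.62 ± 0.12.

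Auxin-related genes numbered 10, namely IAA4 (AT5G43700) and 9 SAUR genes, with a median of -0.64 at 30 min and 0.046 at 360 min. IAA4, an Aux/IAA repressor, had levels of 9.30 and 9.43 in unwounded and 8.48 and 8.52 in wounded shoots at 30 min, a ratio of -0.87 ± 0.07. The ratio of IAA4 at 360 min was -0.08 ± 0.01.

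The SAUR genes came from 2 stretches of the genome. SAUR63 (AT1G29440), SAUR64 (AT1G29450), SAUR65, SAUR66 (AT1G29500) and SAUR68 (AT1G29510) lie on chromosome 1, with SAUR63 to SAUR65 next to each other and SAUR66 next to SAUR68. SAUR19 (AT5G18010), SAUR20 (AT5G18020), SAUR21 (AT5G18030) and SAUR23 (AT5G18060) lie on chromosome 5, with the first 3 next to each other. Neighbouring SAUR genes are close copies, so that a probe may take up signal of another copy, and the 9 genes are not 9 separate observations.

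Their ratios at 30 min ran from -0.78 ± 0.19 for SAUR63 to -0.47 ± 0.10 for SAUR65. SAUR21 had levels of 7.97 and 8.49 in unwounded shoots and 7.46 and 7.70 in wounded shoots, a ratio of -0.65 ± 0.19. SAUR23 had 8.57 and 8.95 in unwounded shoots and 8.02 and 8.20 in wounded shoots, a ratio of -0.65 ± 0.14. In both the wounded replicates lay below both unwounded ones. The chromosome 5 genes were all slightly above 0 at 360 min, from 0.051 ± 0.030 for SAUR20 to 0.16 ± 0.18 for SAUR23. Those of chromosome 1 lay between -0.16 ± 0.14 for SAUR66 and 0.077 ± 0.25 for SAUR64.

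RefSeq names 68 genes on the array as SAUR genes, of which 57 were kept. Of these 57, 15 were lower at 30 min by limma at an adjusted p under 0.05, 9 of them in the set and 6 outside it, and 4 were higher, where 2.16% of all genes tested were lower and 4.52% higher. The median over the 57 was -0.051. SAUR22 (AT5G18050) and SAUR24 (AT5G18080), which lie in the same chromosome 5 stretch as SAUR23, had -0.59 ± 0.15 and -0.55 ± 0.06 and missed the threshold of the choice. AT1G29430 and AT1G29490, of the chromosome 1 stretch, had -0.13 ± 0.11 and 0.044 ± 0.035. The lower ratios thus did not extend to every measured copy of that stretch.

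Genes of ubiquitin ligases and F-box proteins numbered 8, with a median of -0.76 at 30 min. The lowest was BT2 (AT3G48360), a BTB and TAZ domain protein that works with CULLIN3 and responds to nitrate and sugar. Its levels were 10.33 and 10.39 in unwounded and 9.18 and 8.89 in wounded shoots at 30 min. The ratio was -1.32 ± 0.25, and at 360 min it was -0.76 ± 0.31, the lowest of the 76 at that time. Its unwounded level was higher at 360 min, at 11.12 and 11.31.

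The RING-type ubiquitin ligases in the set were RZPF34 (AT5G22920) at -0.92 ± 0.01, RHA1B (AT4G11360) at -0.89 ± 0.08, RHA3A (AT2G17450) at -0.76 ± 0.06 and RMA2 (AT4G28270), which sits in the endoplasmic reticulum membrane, at -0.62 ± 0.09. DAFL2 (AT5G01880) had -0.58 ± 0.11, and the F-box protein genes AT3G23880 and AT1G67340 had -0.75 ± 0.11 and -0.54 ± 0.06. Replicate SDs of these genes were at most 0.11. At 360 min RZPF34 and AT3G23880 were at -0.31 ± 0.10 and -0.31 ± 0.21, while RHA1B (1 replicate), RHA3A, RMA2, DAFL2 and AT1G67340 lay between -0.15 and 0.09.

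Among 16 other annotated genes the lowest were J8 (AT1G80920) and J11 (AT4G36040), small J-domain chaperones of the chloroplast. J8 had levels of 10.55 and 10.70 in unwounded and 9.49 and 9.28 in wounded shoots at 30 min, a ratio of -1.24 ± 0.26. J11 had 9.47 and 8.99 against 8.40 and 7.93, a ratio of -1.06 ± 0.01. The replicates of J11 differed in level by about as much in both groups, so that their ratios were nearly equal.

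PP2-A13 (AT3G61060), a phloem lectin-type protein, had -0.95 ± 0.08. ATG8E (AT2G45170), a ubiquitin-like protein of the autophagosome, had -0.71 ± 0.01, and PKS1 (AT2G02950), a phytochrome kinase substrate of phototropism, had -0.70 ± 0.06. KRP2 (AT3G50630), an inhibitor of cyclin-dependent kinases, had -0.49 ± 0.05 and UGT73B1 (AT4G34138), a glucosyltransferase, had -0.69 ± 0.07. These genes belong to different processes, and the choice required each of them to be below 0 on all 4 arrays of 30 min.

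Further genes of this group are known by a protein family or by the array's product name. AT4G28240, named there as a putative wound-induced protein, was among the genes with lower signal in wounded shoots, with levels of 9.35 and 9.64 in unwounded and 8.51 and 8.84 in wounded shoots at 30 min and a ratio of -0.82 ± 0.03. AT5G25280, a serine-rich protein, and AT5G39080, an acyltransferase-like protein, had -0.87 ± 0.06 and -0.82 ± 0.04. The replicate ratios of these 3 were close, although the levels of AT5G25280 differed between replicates by more than 0.8. AT1G21920, a putative phosphatidylinositol phosphate kinase, had -0.67 ± 0.02 and AT5G26200, a mitochondrial carrier, had -0.58 ± 0.16. MARD1 (AT3G63210), a gene linked to abscisic acid and seed dormancy, had -0.57 ± 0.10. The family members AT1G62030 (CHP-rich zinc finger), AT3G15570 (non-phototropic hypocotyl protein family) and AT2G29290 (tropinone reductase family) ended the group at -0.54 ± 0.07, -0.49 ± 0.08 and -0.48 ± 0.18.

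The largest group was that of 22 genes with no function known well enough to place them, and its median of -0.85 at 30 min was the lowest of the 5 groups. AT3G15450 had levels of 12.11 in both unwounded replicates at 30 min, against 10.84 and 10.50 in wounded shoots. Its ratio was -1.44 ± 0.23. AT5G60680 had -1.498 ± 0.33, from levels of 9.96 and 9.95 against 8.70 and 8.22. AT5G44680 and AT5G11070 had -1.17 ± 0.06 and -1.08 ± 0.09. In each of these the wounded and unwounded levels at 30 min did not overlap.

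Of the others, AT5G19190 had -0.94 ± 0.21, AT5G24890 -0.91 ± 0.07, AT1G70420 -0.89 ± 0.17, AT3G26510 -0.86 ± 0.05, AT1G74940 -0.84 ± 0.09 and AT3G22970 -0.81 ± 0.09. AT5G21940 had -0.96 from replicate 2 alone, whose arrays gave -0.59 and -1.32, so that the dye orientations were far apart. AT5G03230 had -0.85 ± 0.38, with replicates at -0.58 and -1.12. Both values thus had a wide spread. The closest replicates were those of AT1G21820 at -0.62 ± 0.01, AT1G69160 at -0.75 ± 0.02, AT5G54630 at -0.72 ± 0.03 and AT5G54585 at -0.71 ± 0.03. The last 2 lie near each other on chromosome 5, with 4 protein-coding genes between them. AT4G09890, AT5G59080, AT5G62280, AT3G15630 and AT1G02610 lay between -0.71 and -0.46.

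**Figure D2:**
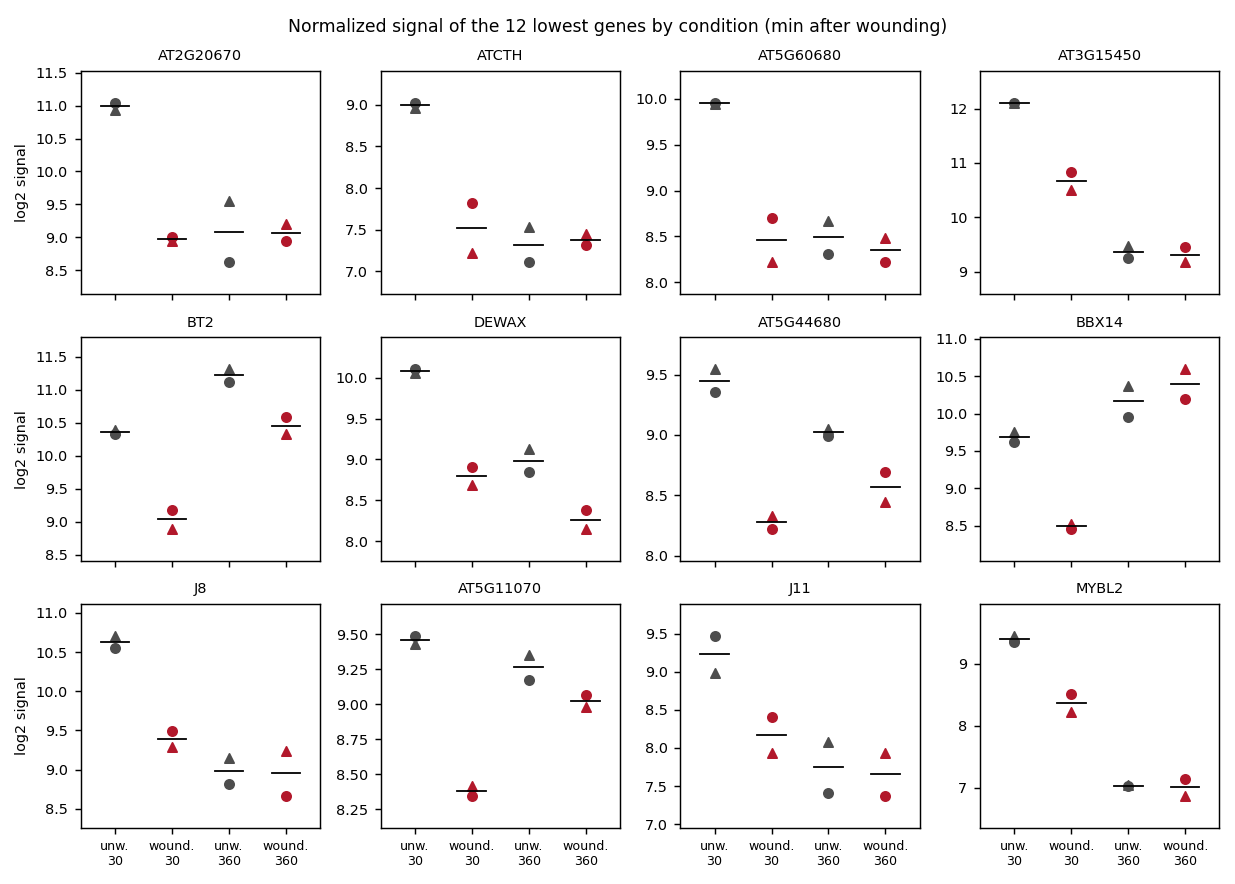
Levels (log2 normalized signal, vertical axis, a scale of its own per panel) of the 12 genes with the lowest mean under the choice, in unwounded (grey) and wounded (red) shoots at 30 and 360 min. Circles are replicate 1, triangles replicate 2 and bars the mean, and at 30 min the wounded replicates lie below the unwounded ones in all 12 panels.

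At 360 min the median ratio of the 76 genes was -0.066, with a range from -0.76 to 0.40, against 0.0046 over all genes. None was 2-fold lower, and 3 were at or below -0.5, namely BT2, DEWAX and AT5G19190 with -0.60 ± 0.30. Of the 76, 49 were below 0 and 27 above, where 47.5% of all genes with a value were below 0. The ratio was below 0 on all 4 arrays for 24 of the 72 genes with a value on every array, against 14.3% of all genes. The upper limit of 0.3 in the choice took genes with higher ratios out, and nothing is read from these shares.

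In the fit over all genes 14 of the 76 were lower at 360 min and 2 were higher (limma, adjusted p under 0.05), where 4.22% and 3.08% of all genes were. The 14 were BT2, DEWAX, AT5G19190, AT5G44680, GT2, BZO2H3, IDD2, AT5G26200, bZIP2, RZPF34, ZFP4, AT3G15630, NAC083 and AT5G39080. Of these, 7 are transcription factor genes, including 2 of the 3 bZIP genes. The 2 higher ones were BBX14 and MARD1, the second from replicate 2 alone at 0.40. The count of 14 was 7 without replicate 2 of 360 min and 0 without either replicate of 30 min, on the authors' log ratios or with each time fitted alone. The 2 higher calls were also lost without either replicate of 30 min, on the authors' log ratios and with each time fitted alone.

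**Figure D3:**
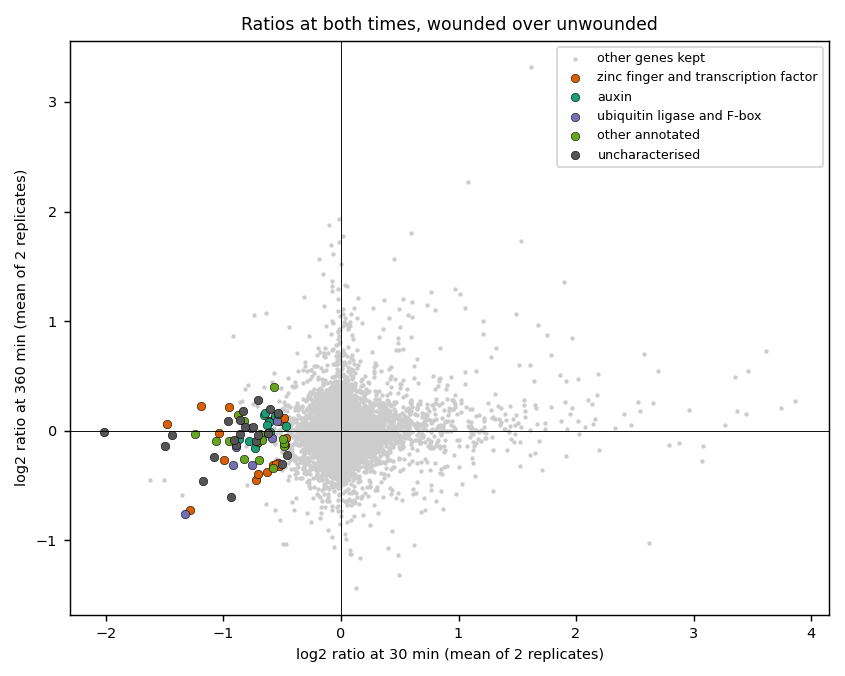
Log2 ratio of wounded over unwounded shoots at 30 min (horizontal axis) and 360 min (vertical axis), mean of the replicates, for the 76 genes coloured by group and for the other genes kept (light grey). The coloured points lie between -2.01 and -0.46 on the horizontal axis and between -0.76 and 0.40 on the vertical axis.

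The levels of both channels give the course of each group. In unwounded shoots the median level of the 76 genes was 8.69 at 30 min and 8.12 at 360 min, and in wounded shoots 7.98 and 8.04. Over all genes kept the 4 medians lay between 7.62 and 7.64. From 30 to 360 min the unwounded level differed by a median of -0.57, with 65 genes lower and 11 higher, while 50.4% of all genes were lower. The wounded level differed by a median of 0.078, with 42 genes higher and 34 lower. The 30 min signals enter the choice, so these differences are descriptions, and each time has arrays of its own, so that time and array set cannot be told apart.

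Both unwounded replicates of 360 min were below both of 30 min for 55 of the 76 genes and above them for 4, where 21.5% and 19.2% of all genes showed this. In wounded shoots the counts were 16 below and 25 above, where 22.4% and 18.0% did. By limma at an adjusted p under 0.05, 16 of the 76 were lower in unwounded shoots at 360 min, where 0.813% of all genes were. In the higher direction 0 passed, where 0.829% of all genes did, and 1 of the 76 had an unadjusted p under 0.05. In wounded shoots 5 were lower and 5 higher, where 2.37% and 1.78% were. Nothing is read from these counts either, since the unwounded signal of 30 min is the denominator of the ratio the choice used. Counted in both directions, the calls in unwounded shoots were 16, against 27 with replicate number in the fit and 11 with no filter. The median unwounded difference of the 76 lay between -0.65 and -0.52 when a replicate was left out. The 10 of wounded shoots were 6 without either replicate of 360 min. The 5 higher ones in wounded shoots were BT2, BBX14, AT5G21940, AT1G74940 and AT4G09890.

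For 28 of the 76 genes the unwounded level at 360 min was at or below the wounded level at 30 min. The share of all genes that showed this was not counted, so nothing is read from the 28. Over all genes kept the median level was 7.62 in unwounded shoots at 360 min and 7.64 in wounded shoots at 30 min. AT3G15450 had the widest difference, from 12.11 in both unwounded replicates at 30 min to 9.25 and 9.46 at 360 min, a difference of -2.75. Its wounded level also differed by -1.36 between the times. MYBL2 differed by -2.37 in unwounded and -1.36 in wounded shoots. Both genes thus had lower levels at 360 min with and without the wound.

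For other genes the unwounded level alone was far lower at 360 min. AT2G20670 differed by -1.91 in unwounded shoots and by 0.09 in wounded shoots. ATCTH differed by -1.68 and -0.14, and AT5G60680 by -1.47 and -0.11. In these 3 the wounded level of 30 min was already near the level that both groups had at 360 min.

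A smaller number of genes showed the other course. BT2 differed by 0.86 between the times in unwounded shoots and by 1.42 in wounded shoots. BBX14 differed by 0.48 and 1.90, the highest value of the set in wounded shoots. PKS1, UGT73B1, KRP2, bZIP2, BEE2, IDD2, RMA2, AT1G74940 and AT4G09890 made up the rest of the 11 with higher unwounded levels at 360 min, at 0.02 to 0.30.

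By group the unwounded difference had a median of -0.54 in the transcription factor and zinc finger genes, -0.73 in the auxin genes, -0.26 in the ubiquitin ligase and F-box genes, -0.54 in the other annotated genes and -0.57 in the uncharacterised genes. None of the 10 auxin genes was higher in unwounded shoots at 360 min, where 11 of all 76 chosen genes were. Over all genes kept 50.4% were lower. Nothing is read from the absence among the auxin genes, since the unwounded signal of 30 min entered the choice. The SAUR genes among the 10 are also not separate observations. In 7 of the 10 auxin genes the unwounded level at 360 min was at or below the wounded level at 30 min. SAUR21 for instance had 7.97 and 8.49 in unwounded and 7.46 and 7.70 in wounded shoots at 30 min, then 7.11 and 7.49 in unwounded and 7.31 and 7.56 in wounded shoots at 360 min. The share of all genes with that order was not counted here either, so nothing is read from the 7.

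**Figure D4:**
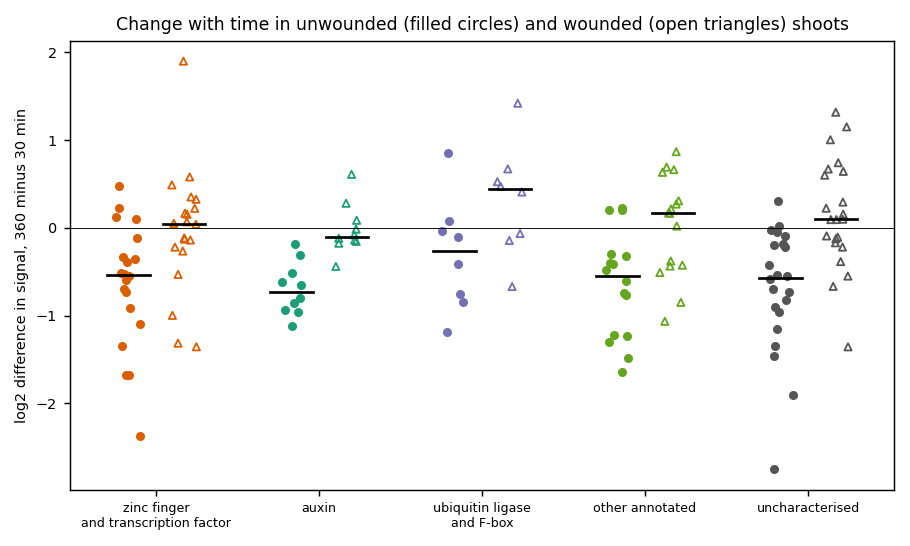
Difference in level between 360 and 30 min (log2, vertical axis) for the 76 genes by group, in unwounded (filled circles) and wounded (open triangles) shoots, with bars at the medians. Points are spread sideways for sight alone, and the unwounded medians lie between -0.73 and -0.26.

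The 2 dye orientations gave unlike values under the normalization of the choice. At 30 min the median of the 76 genes was -0.61 with the wounded RNA in Cy5 and -1.22 with it in Cy3, and 63 of the 76 were lower in the second orientation. After loess both medians were -0.72, and 43 of the 76 were lower in the second orientation. After loess 41 of the 76 still had a mean at or below -0.7. The genes that did not had ratios up to -0.46 in AT1G02610.

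**Figure D5:**
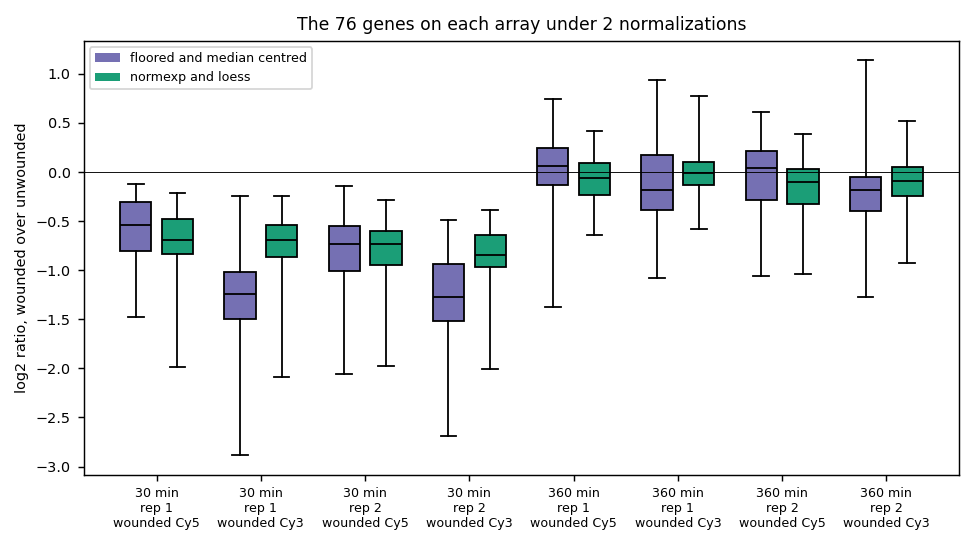
Log2 ratios of the 76 genes on each of the 8 arrays (boxes are quartiles with the median, whiskers the lowest and highest value), floored and median centred as in the choice (purple) and after normexp and loess (green). At 30 min the purple medians run from -1.27 to -0.54 and the green ones from -0.84 to -0.69.

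The limits of the choice ran through a continuous range of values. Just inside the lower limit, by the values of the choice, were AT1G02610 at -0.702, DREB1A at -0.704 and AT1G67340 at -0.707. Just outside were AT5G02760, a phosphatase gene of the PP2C family, at -0.698, and AT4G38860, a SAUR gene, and WAVH2 (AT5G65683), both at -0.696. At the upper limit for 360 min AT5G59080 and AT5G62280 were inside at 0.27 and AT4G09890 at 0.26, while CIPK5 (AT5G10930) was outside at 0.31 and BBX15 (AT1G25440) and AT1G64380 at 0.32. A total of 11 genes met every limit but that one, and 6 had a mean at or below -0.7 without all 4 arrays below 0.

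Features that the choice did not use are given for the 76 genes as a description, with no test. Classes were set by words in the array's product names and the RefSeq names, and a gene could fall in more than 1 class. The transcription factor class, which took any zinc finger name, held 16 of them (21.1%), against 5.71% of all genes on the array. The ubiquitin class held 6 (7.89%), against 2.40%. The words for kinases or receptors matched 2 (2.63% against 6.26%), of which PKS1 is a kinase substrate by name. The names also gave 1 transporter (1.32% against 3.20%) and no cell wall gene, against 2.65%. Names that call the protein unknown numbered 6 (7.89% against 16.3%), a narrower class than the 22 uncharacterised genes above. Their median gene length in RefSeq was 1644 bases for the 75 with an entry, against 2299 for all genes. Chromosome 5 held 28 of them, 36.8% against 22.9% of all genes on the array, and chromosome 2 held 7. The SAUR neighbours account for 4 of the genes on chromosome 5. The floor pulls the ratios of dim genes toward 0, so that dim genes were less able to meet the limits.

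The other genes of related pathways were read from 13 lists, chosen with earlier results of these arrays known, and are given as counts of genes past limma's threshold at 30 min. These counts include the genes of the set. Of all genes tested, 2.16% were lower and 4.52% higher at 30 min, and 4.22% were lower and 3.08% higher at 360 min. Of 29 genes known to respond to sugar starvation 6 were lower and 2 higher, with a median of -0.088. The 6 comprised AT2G20670, AT3G15450, bZIP1 and BZO2H3 of the set, and DYL1 (AT1G28330) and AKINBETA1 (AT5G21170). ASN1 (AT3G47340), asparagine synthetase and a classical starvation gene, was higher at 0.27 ± 0.13, so the list did not move one way.

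Of 12 growth-related bHLH genes 5 were lower, with a median of -0.20. Beside BEE2 and BEE3 of the set these were PRE1 (AT5G39860) at -0.56 ± 0.24, BEE1 (AT1G18400) at -0.44 ± 0.09 and PIL6 (AT3G59060) at -0.22 ± 0.01. Of 27 auxin genes 11 were lower, 4 of them in the set, and 2 were higher, with a median of -0.18. The higher ones were IAA5 (AT1G15580) and IAA6 (AT1G52830), which are Aux/IAA genes as IAA4 is, with 0.49 ± 0.10 and 0.81 ± 0.18. The auxin list holds only part of the family. It lacks SAUR19 and the SAUR genes of the chromosome 1 stretch, so 4 of the 10 auxin genes of the set are on it. Of 13 brassinosteroid genes 0 passed limma's threshold, and 4 had an unadjusted p under 0.05.

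Of 19 B-box genes 4 were lower and 1 higher at 30 min, and 4 were higher at 360 min. The lower ones included BBX14 of the set and BBX15, which had -0.82 ± 0.08 at 30 min and 0.38 ± 0.0020 at 360 min. Of 5 tandem CCCH genes 2 were lower, ATCTH and OZF2 (AT4G29190), the second at -0.41 ± 0.01. Of 15 nitrate-related genes 4 were lower and 1 higher at 30 min, and 8 were lower at 360 min. BT2 was the only one of these 15 in the set. The list counts of 360 min were not redone under other settings. Over all genes the 1398 calls of that time were 79 with each time fitted alone and 130 on the authors' log ratios.

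None of the genes of the other 7 lists was in the set. At 30 min 5 of 16 cytokinin genes were lower, and 5 of 19 HD-ZIP genes were lower and 1 higher. In the expansin and XTH list 3 of 21 were lower and 2 higher, in the gibberellin list 1 of 19 was lower and 2 were higher, in the chlorophyll synthesis list 1 of 12 was lower and 1 higher, and in the clock list 1 of 15 was lower. These 7 lists had medians between -0.11 and 0.035, with the brassinosteroid list at -0.057.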

How the data were processed

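The deposited scanner files hold mean and local background intensity per spot in both channels on a linear scale, not normalized, made in Agilent Feature Extraction (version 7.1.1, per the submitters' processing notes). A log10 ratio of red over green stands beside them, background-subtracted and dye-normalized per the file headers, and the authors' deposited matrix holds the same log10 ratio, with column medians of 0 on 6 arrays, -0.001825 on 1 and 0.000378 on 1. The genome build is not given in the sources used here.

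The ratios of arrays with wounded RNA in Cy3 were turned in sign. For all values but those of the choice, background was corrected with normexp (offset 50) and arrays were normalized by loess, with 1075 control spots and outlier spots at weight 0 (limma 3.58.1, R 4.3.3). Outlier spots were left out, and a dye pair that held one gave no value. Dye pairs were averaged to 1 replicate. A model with 1 coefficient per time was fitted to all genes kept with lmFit and eBayes (2 residual degrees of freedom, prior 3.58), with Benjamini-Hochberg adjustment and a threshold of 0.05. Replicates of each time thus also bear on the calls of the other time. Levels were channel values after Aquantile, outlier spots kept, averaged over each dye pair. Gene symbols, lengths and neighbours are from RefSeq TAIR10.1, which held 98.6% of the loci.

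The genes and lists were chosen with earlier results of these data known. Named are the 12 genes lowest at 30 min, those on a list, the extremes at 360 min, of level and of array spread, those at the limits and examples of each product class. Other genes were named after their values were seen. The fit was also run on simulated replicate ratios of 19178 genes, drawn from normal distributions with each gene's replicate SD. With 50 genes changed at each fold at 30 min, 56% at -0.5, 82% at -1, 96% at -1.5 and 98% at -2 were recovered. There were 4 false calls among the genes left unchanged. Background, dye and spot effects were not simulated, so these figures do not give the error rate of the arrays.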

Additional observations from a re-analysis of the deposited data

Results flagged for a closer look

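A total of 12 genes had ratios below 0 on all 4 arrays of 30 min and above 0 on all 4 arrays of 360 min. This is a tally of signs alone, and some values of 360 min were close to 0. SAUR20 had 0.058, 0.00097, 0.145 and 0.00012 on its arrays of that time. The difference between the times was not tested for them, since both times entered the choice. The choice itself required all 4 arrays of 30 min to be below 0. The share of all genes above 0 on all 4 arrays of 360 min was not counted, so nothing is read from the number of 12. At 360 min the log2 ratio of the regulators was 0.23 for BBX14 and 0.22 for MYB16. The SAUR genes of chromosome 5 had 0.13 for SAUR19, 0.051 for SAUR20, 0.14 for SAUR21 and 0.16 for SAUR23. These 4 are close copies whose probes may share signal. The remaining genes are not characterised or only by a protein family, with 0.28 for AT4G09890, 0.19 for AT5G59080, 0.18 for AT1G74940, 0.16 for AT5G62280, 0.15 for AT1G62030 and 0.14 for AT5G25280. BBX14 alone among the 12 passed limma's threshold at 360 min, and it did not pass without either replicate of 30 min, on the authors' log ratios or with each time fitted alone.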

How the results depend on the processing

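The number of genes that met the limits was 76, and it was 33 with a floor of 100 (all 33 among the 76), 46 after normexp and loess (41 of them among the 76), 135 on the authors' log ratios (74 among the 76), and 73 to 238 when a replicate was left out. The median of the 76 at 30 min was -1.04 on the authors' log ratios, -0.57 without background correction, -0.81 with plain subtraction, and -0.75 to -0.68 without a replicate. The number of genes called was 1282 at 30 min (304 to 1680 without a replicate) and 1398 at 360 min (79 to 1317), the latter 130 on the authors' log ratios and 79 with each time fitted alone. Without replicate 2 of 360 min the 360 min calls turned to 825 higher and 492 lower. Between the times 315 genes were called in unwounded shoots (188 with no filter, 232 to 1454 without a replicate) and 795 in wounded shoots (447 to 1406). Leaving out a replicate leaves a time with 1 sample, which is assumed to vary as the other time does. The correlation of same-numbered deviations was -0.03 for ratios and 0.10 for unwounded levels, which cannot decide whether replicate numbers pair the samples. With the replicate block the counts were 1236 at 30 min, 1206 at 360 min, 827 in unwounded and 1018 in wounded shoots. For the 46 genes named by rule, 0 of 550 alternative values at 30 min turned in sign, and 13 of 549 at 360 min did, in 12 genes. By size, 99 of the 550 moved by more than the spread between replicates, and 19 of the 549 did. The 30 min log2 ratio of BEE3 was -1.33 on the authors' log ratios and -0.32 without background correction, and that of SAUR65 was -1.23 and -0.27. The cause of these changes was not tested. The promoter motif search was not run.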

Other observations

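The 11 genes kept out by the 360 min limit alone included several regulators. BBX15 and BBX17, B-box factors as BBX14 is, had log2 ratios of -0.82 ± 0.08 and -0.57 ± 0.04 at 30 min and of 0.38 ± 0.0020 and 0.53 ± 0.012 at 360 min (n = 2 replicates). KNAT4, a KNOX-type homeobox gene, had -0.79 ± 0.10 and then 0.42 ± 0.06. PRE1, a small bHLH protein that promotes cell elongation, had -0.56 ± 0.24 and then 0.40 ± 0.0014. The widest opposite values were those of BHLH100, an iron-deficiency bHLH gene, at -0.64 ± 0.57 and 1.07 ± 0.48, and AT1G26800, at -0.74 ± 0.13 and 1.06 ± 0.01. The replicates of BHLH100 differed widely at both times, while those of AT1G26800 were close. These genes were picked by their ratios at both times, so the values are a description.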
